A study of Mus musculus with 13 samples.

Results

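The genes described here encode enzymes and proteins of the pericellular matrix: the ADAM proteases *Adam8*, *Adam10*, *Adam15*, *Adam17* and *Adam19*, the gelatinase *Mmp9*, the metalloprotease inhibitors *Timp1* and *Timp2*, and fibronectin, *Fn1*. They were 9 of the 24417 named genes counted in both RNA-seq tables of the study, matched by symbol. They were chosen by earlier measurements on these same libraries: the counts of both tables and comparisons made from them were known, *Fn1* had been singled out among the largest rises of rescued over control Treg cells, and *Mmp9* among the largest rises of rescued Treg cells over Treg "wannabes". Those 2 differences, and the others of these 2 genes that use the same male libraries, are therefore given as a description, without a test, and the adjusted p-values given for the other differences are descriptive too.

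ADAMs are membrane-anchored metalloproteases that release the extracellular parts of cytokines, receptors and adhesion molecules from the cell surface, and in T cells ADAM10 and ADAM17 are known for cutting LAG-3 and TNF receptors. Matrix metalloproteases such as MMP9 cut components of the extracellular matrix, TIMPs bind to and block the active site of metalloproteases, and fibronectin is a matrix glycoprotein to which cells attach through integrins. These activities are set largely after transcription, by removal of a prodomain and by partner proteins.

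The study followed CD4 T cells carrying a *Foxp3* allele, Foxp3LSL, in which a cassette with a Thy1.1 reporter stops production of the Treg-defining factor Foxp3 until Cre removes it. In C57BL/6 males, a dose of 4-hydroxytamoxifen (4-OHT), which activates CreERT2, was given on postnatal day 14, and cells from pooled spleen and lymph nodes were sorted by flow cytometry on day 21. In C57BL/6 females, treated at 8 to 10 weeks of age, diphtheria toxin (DT), which kills cells bearing its receptor, was given 7, 5, 3 and 1 days before analysis at 9 to 11 weeks. Bulk mRNA was sequenced from 13 libraries in 5 groups.

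Control Treg cells (3 libraries, Foxp3DTR-GFP/yCd4creERT2) came from males with a functional *Foxp3* allele and had received 4-OHT too. Rescued Treg cells (3 libraries, Foxp3LSL/yCd4creERT2) were those in which CreERT2, driven from the *Cd4* locus, had restored Foxp3, and male wannabes (2 libraries, Foxp3LSL/yCd4wt) received 4-OHT without Cre and made no Foxp3 protein. Among females, resting wannabes (3 libraries, Foxp3LSL/WT with Cd4wt) kept functional Treg cells beside them, whereas activated wannabes (2 libraries, Foxp3LSL/DTR with Cd4wt) had lost theirs to DT, which both groups received. The summary of the series gives these 2 numbers of replicates the other way round, while the titles, genotypes, count columns and published methods agree on those used here. Treg cells were sorted as Foxp3-positive and Thy1.1-negative and wannabes as Thy1.1-positive, each in 2 rounds. Control and rescued Treg cells differed in *Foxp3* allele as well as in the inflammation of the mouse, no control-allele library came from an inflamed mouse, and sex, age and agent differed between the male and female experiments, so that these cannot be told apart. The published methods count 3 and 2 mice for the female groups and describe the male libraries as biological replicates, while the labels number the replicates without naming animals.

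Total counts were 30263824, 34472682 and 33756032 in control Treg, 35618641, 25558402 and 36660933 in rescued Treg, 34101232 and 31942224 in male wannabe, 28061669, 29075913 and 28540943 in resting wannabe and 31464218 and 31351030 in activated wannabe libraries. At these depths a count of 0 allowed up to 3 counts, or between 8.18e-06% and 1.17e-05% of a library, a limit that covers counting error only. *Foxp3* stood at 169, 225 and 259 CPM (counts scaled to a common library total) in control Treg cells, 843, 900.2 and 1082 in rescued, 86.2 and 95.1 in male wannabe, 70.2, 67.4 and 75.2 in resting wannabe and 52.7 and 57.7 in activated wannabe cells. Transcripts of the locus were thus highest in the rescued cells, and the wannabes, sorted for expression from this locus, kept a lower level in each library. Of 10 T cell markers, 7 were in the tables, and these summed to between 4992 and 7537 CPM over the 13 libraries. Of these *Cd4*, named after its values were seen, was called lower by edgeR in control and in rescued Treg cells than in male wannabes. The wannabes also differed from both Treg groups in the *Cd4* allele, which cannot be told apart from the other differences. The 5 Treg markers (*Foxp3*, *Il2ra*, *Ctla4*, *Ikzf2*, *Tnfrsf18*) summed to between 1492 and 3980.5 CPM.

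The set spanned a wide range of abundance. In CPM per kilobase of exon, the scale on which genes can be compared with each other, *Adam10* had group means between 35.6 and 66.3, *Adam19* between 25.9 and 52.8, and *Adam17* between 19.4 and 22.7. On the same scale *Adam8* ran from 5.64 in control Treg to 39.3 in male wannabe cells, *Timp2* from 4.98 in control Treg to 42.8 in activated and 61.9 in resting wannabe cells (resting wannabe 1 at 114 and the 2 other resting libraries at 46.3 or less), *Mmp9* from 0.347 in activated wannabe to 12.9 in rescued Treg cells, and *Adam15* from 1.31 in male wannabe to 4.05 in rescued Treg cells. *Fn1* reached 1.12 in male wannabes at most, and *Timp1* 0.223 in control Treg cells. *Adam10*, *Adam17* and *Adam19* messages were therefore present at 19.4 or more in each of the 5 groups, whereas *Fn1* and *Timp1* were scarce. Other values are normalized counts, which are counts scaled to a common effective library size within each experiment by the trimmed mean of M values (TMM), and given as mean ± SD.

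**Figure D1:**
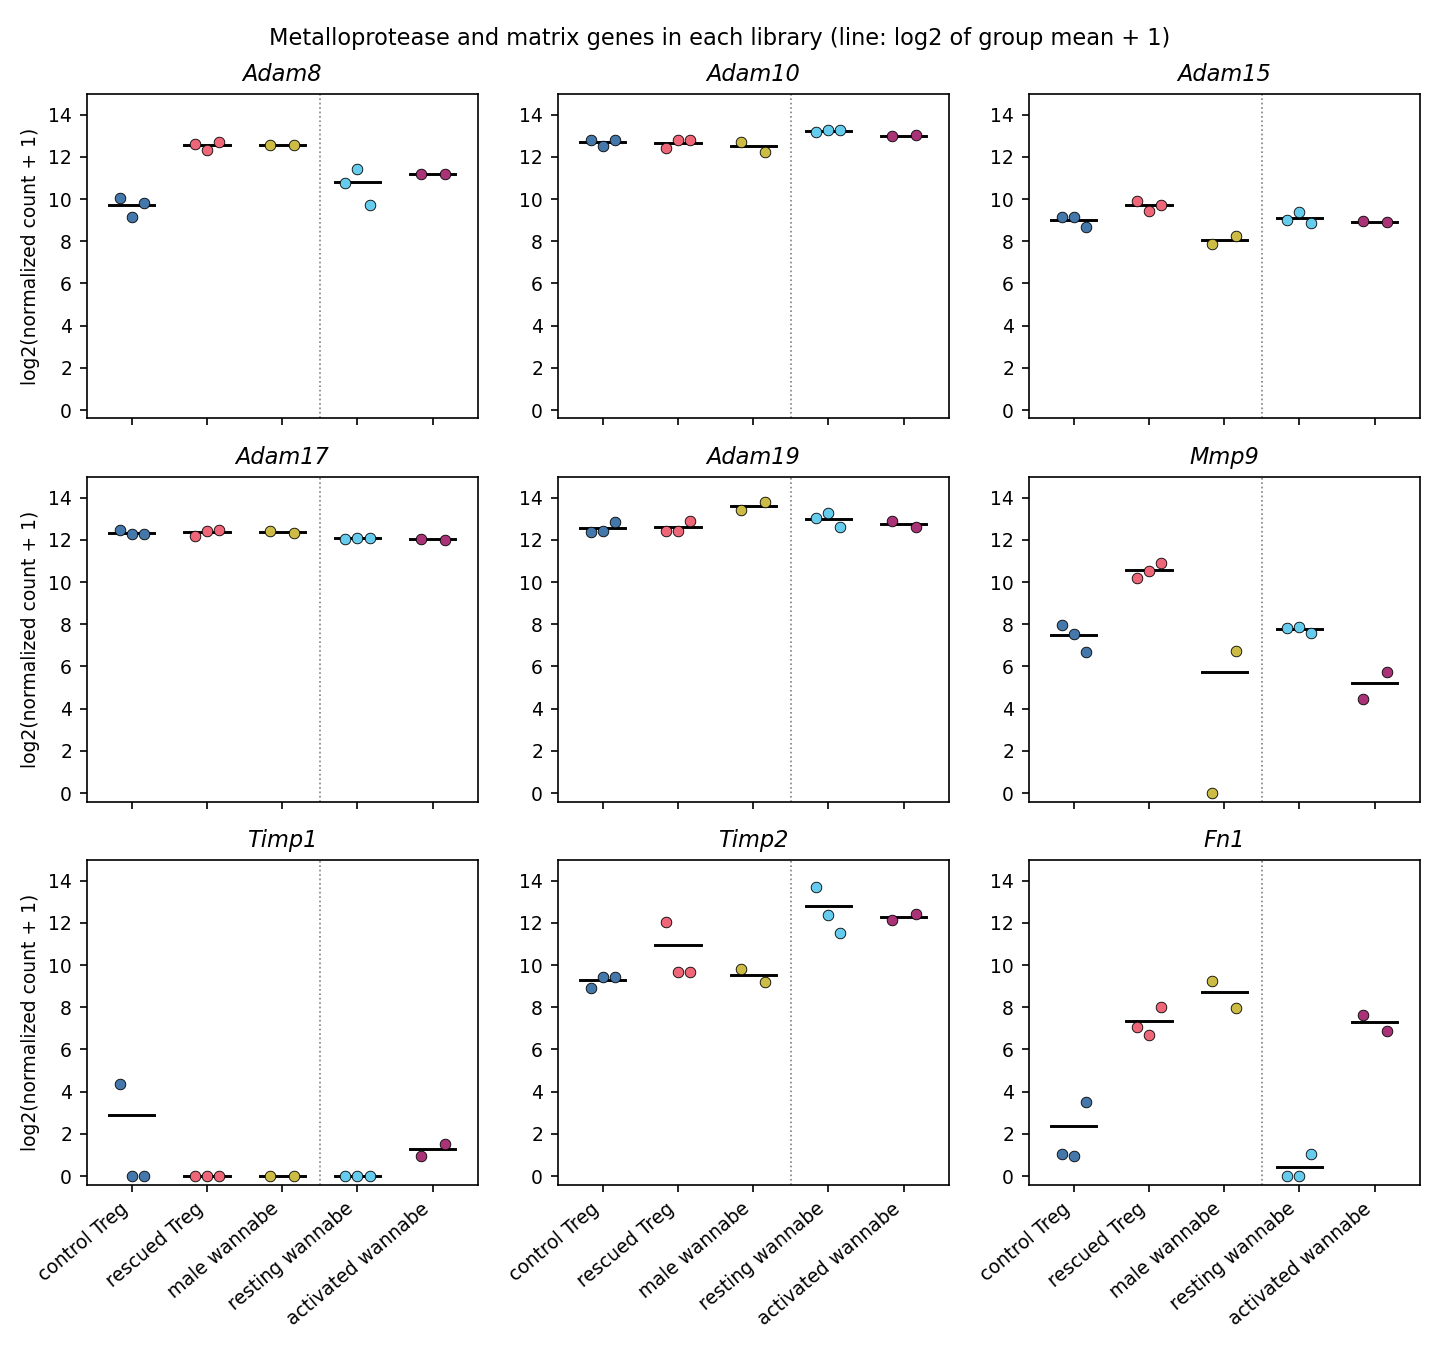
Each point is 1 library and each line the log2 of the group mean plus 1, on a vertical axis of log2(normalized count + 1), for the 9 genes in the 5 groups; the dotted line separates the male from the female experiment, whose counts were normalized separately. *Adam8* was high in the 3 rescued Treg and 2 male wannabe libraries, between 5135 and 6590.0 normalized counts, and *Fn1* was at most 10.4 in the control Treg and resting wannabe libraries.

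Differences were tested with edgeR's quasi-likelihood test over all genes that passed a filter on low counts and called at a Benjamini-Hochberg adjusted p under 0.05. *Timp1* did not pass the filter, which left 8 of the 9 genes tested in each comparison. In males the 6 tested members other than *Fn1* and *Mmp9*, which were picked on these libraries, are counted. Between rescued and control Treg cells, 1 of the 6 was called, *Adam8*, higher in rescued cells, beside 2.3% of all 14925 genes tested (1.43% higher and 0.864% lower). No member was called lower by edgeR there, 3 of the 6 had an unadjusted p under 0.05 (all genes 16.1%), and DESeq2 called 2 (all genes 8.16%). Between control Treg cells and male wannabes, 2 of the 6 were called, *Adam8* and *Adam19*, each lower in control cells, beside 16.2% of all genes (9.92% higher and 6.27% lower); none was called higher by edgeR, 3 had an unadjusted p under 0.05 (all genes 31.2%) and DESeq2 called 3 (all genes 25.6%). Between rescued Treg cells and male wannabes, 1 of the 6 was called higher, *Adam15*, and 1 lower, *Adam19*, beside 14.1% of all genes (10% higher and 4.06% lower). Between activated and resting wannabes, 1 was called higher, *Fn1*, and 1 lower, *Mmp9*, beside 22.5% of 13166 genes (11.3% higher and 11.2% lower). *Fn1* passed the filter there through the activated libraries alone, and without it 1 of 7 members was called. Nothing about the members is read from these numbers.

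The median log2 fold change of the same 6 members between rescued and control Treg cells was 0.36 (0.26 to 0.47 with a library left out), where the median over all genes tested was -0.025. It was -0.14 (-0.35 to 0.044 with a library left out) between control Treg cells and male wannabes (all genes 0.089) and 0.084 (-0.071 to 0.23 with a library left out) between rescued Treg cells and male wannabes (all genes 0). Between activated and resting wannabes the 8 tested members had -0.20 (-0.24 to -0.067 with a library left out), beside -0.0073 over all genes. The median of the members was the same with *Fn1* at the bound given further on. The 3 male comparisons shared their libraries and their estimate of the spread, so that each library entered 2 of them.

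**Figure D2:**
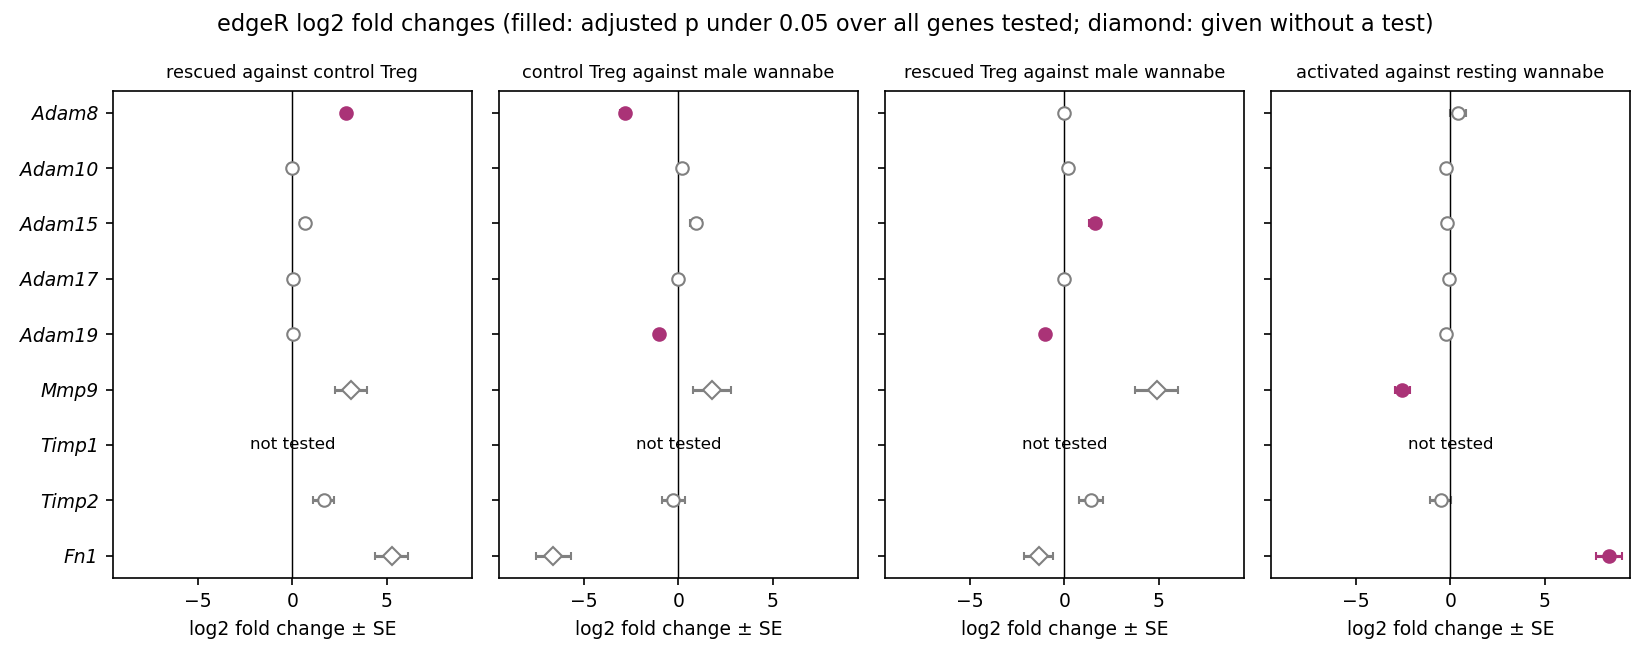
Log2 fold changes of the members in the 4 comparisons, on the horizontal axis, with bars of 1 standard error and filled symbols for an edgeR adjusted p under 0.05; open diamonds mark the differences of *Fn1* and *Mmp9* given without a test. The *Adam8* values sat at 2.84 for rescued against control Treg cells, -2.85 for control Treg cells against male wannabes and -0.015 for rescued Treg cells against male wannabes.

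*Adam8*, a sheddase best known from leukocytes, was high in rescued Treg cells and male wannabes alike and low in control Treg cells. It stood at 1055, 572 and 884 normalized counts in the control Treg libraries, 6219.8, 5135 and 6590.0 in the rescued Treg libraries and 6059 and 6029 in the male wannabe libraries. Each of the 5 male libraries with a Foxp3LSL allele lay above each control library, and the male wannabe values fell within the range of the rescued ones. RNA was measured in bulk, so more cells with the transcript and more of it per cell cannot be told apart. The mean was 5982 ± 756 in rescued (n = 3) and 837 ± 245 in control Treg cells (n = 3), a 7.15-fold difference, with a log2 fold change of 2.84 (SE 0.23, edgeR adjusted p = 0.000393). Against male wannabes (6044 ± 21.7, n = 2), control Treg cells were lower with a log2 fold change of -2.85 (SE 0.24, edgeR adjusted p = 0.000160), while rescued Treg cells did not differ beyond the spread (-0.015, edgeR adjusted p = 0.979). In females *Adam8* stood at 1708, 2757 and 843 in the resting and 2302 and 2341 in the activated wannabes. The resting libraries straddled the activated ones, and the difference was not called (log2 fold change 0.39, edgeR adjusted p = 0.536).

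*Adam19*, a sheddase of the same family, was highest in the male wannabes and did not follow *Adam8*. It stood at 5241, 5480.2 and 7459 in the control Treg, 5463, 5524 and 7558 in the rescued Treg and 10977 and 14047 in the male wannabe libraries. Both wannabe libraries lay above the 6 Treg libraries, while control and rescued Treg values interleaved. Means were 6060.0 ± 1217 in control Treg, 6182 ± 1192 in rescued Treg and 12512 ± 2171 in male wannabe cells. The log2 fold change against the wannabes was -1.05 (SE 0.21, edgeR adjusted p = 0.00748) in control and -1.02 (SE 0.21, edgeR adjusted p = 0.00847) in rescued Treg cells. Rescued and control Treg cells did not differ beyond the spread, with a log2 fold change of 0.029. In females it stood at 8342, 9769 and 6336 in resting and 7547 and 6271 in activated wannabes, values that overlapped, and the difference was not called (-0.24, edgeR adjusted p = 0.387).

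*Adam15*, an ADAM with an integrin-binding motif in its human form, showed the opposite order in males, lowest in the wannabes. Its values were 566, 574 and 404 in control Treg, 952, 695 and 852 in rescued Treg and 235 and 304 in male wannabe libraries. The 3 groups did not overlap, with rescued Treg cells highest. Rescued Treg cells averaged 833 ± 129.9 against 269 ± 48.7 in male wannabes, a 3.09-fold difference with a log2 fold change of 1.63 (SE 0.32, edgeR adjusted p = 0.00606). Control Treg cells, at 515 ± 96.0, were between them without a called difference from either neighbour (log2 fold change 0.93 over wannabes, edgeR adjusted p = 0.0633; rescued over control 0.70, edgeR adjusted p = 0.230). With DESeq2 the control Treg and wannabe difference had an adjusted p of 0.0184, within a range of 0.0184 to 0.125 over the 6 other settings. In females the resting and activated libraries lay together, between 468 and 657 (log2 fold change -0.17).

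*Adam10* and *Adam17*, the main sheddases of T cells, were abundant. *Adam10* lay between 4844 and 7208 normalized counts over the 8 male libraries and between 8174 and 9936 over the 5 female ones, and *Adam17* between 4611 and 5655 and between 4032 and 4372. Neither was called in any of the 4 comparisons by edgeR, although a missed threshold does not show equal levels. The order of the male means was control Treg (6720.0 ± 731), rescued Treg (6549.6 ± 876) and male wannabe (5778 ± 1321) for *Adam10*, with no neighbours apart beyond their spread, and the *Adam17* means ran from 5179 to 5289.5. The nearest to a call was *Adam10* in females, where the 3 resting libraries (9220.4, 9761 and 9936) lay above both activated ones (8174 and 8254), with a log2 fold change of -0.23 (SE 0.072, edgeR adjusted p = 0.0633). DESeq2 called this difference with an adjusted p of 0.0388, in a range over the 5 other settings of 0.0388 to 0.174.

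In the GRCm38 annotation *Adam8* lay at chr7:139978932-139992562 on the minus strand, *Adam10* at chr9:70678997-70780229 (plus), *Adam15* at chr3:89338542-89349996 (minus), *Adam17* at chr12:21323509-21373632 (minus) and *Adam19* at chr11:46055992-46147343 (plus). *Mmp9* lay at chr2:164940780-164955850 (plus), *Timp1* at chrX:20870166-20874735 (plus) within the *Syn1* gene, with no exonic base shared, *Timp2* at chr11:118301069-118355740 (minus) and *Fn1* at chr1:71585520-71653200 (minus). Exons of *Adam17* shared 311 bases with *Iah1* and exons of *Fn1* 292 bases with *Apol7d*, each on the opposite strand. *Adam15* shared 1263 exonic bases with the antisense *4731419I09Rik*, *Adam19* 587 with *Gm16033* and 480 with *Gm16034*, and *Adam8* 46 with *Gm16201*, genes without an entry in the tables used here. Whether counting used strand was not given in the sources used here, so reads of such pairs cannot be told apart. *Apol7d* itself held at most 9 counts in a library.

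Promoter sequences from RefSeq (GRCm38.p6) matched 7 of the 9 genes by symbol, *Fn1* and *Mmp9* being the others. The 250 bases before the start are shown for *Adam8* and *Adam19*, the matched genes called lower in control Treg cells than in male wannabes, at chr7:139992563-139992812 (minus strand) and chr11:46055734-46055983 (plus strand, the one of 3 listed windows nearest the annotated gene start, ending at the RefSeq start). Capitals mark matches on either strand to an AP-1 motif (TGANTCA), an NF-kB motif (GGG, any 5 bases, CC) or a GAS motif, bound by STAT factors (TTCNNNGAA), present in 6.75%, 45.8% and 7.02% of 32851 promoters of the same length.
Adam8: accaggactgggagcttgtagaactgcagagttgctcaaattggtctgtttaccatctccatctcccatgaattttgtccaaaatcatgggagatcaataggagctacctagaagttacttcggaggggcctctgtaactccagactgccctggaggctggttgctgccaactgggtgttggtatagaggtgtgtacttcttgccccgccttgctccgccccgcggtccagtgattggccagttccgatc
Adam19: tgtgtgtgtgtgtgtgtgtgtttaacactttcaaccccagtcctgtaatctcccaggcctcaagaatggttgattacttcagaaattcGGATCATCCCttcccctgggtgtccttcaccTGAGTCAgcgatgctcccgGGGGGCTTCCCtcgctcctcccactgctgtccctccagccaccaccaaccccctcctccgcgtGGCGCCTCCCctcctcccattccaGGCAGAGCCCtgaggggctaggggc
The *Adam8* window held no match to the 3 motifs. The *Adam19* window held the AP-1 letters TGAGTCA starting 131 bases before the RefSeq start, at chr11:46055853-46055859, 5 matches to the NF-kB letters, 2 of which overlap each other, and no GAS match. A match describes the sequence and shows no binding.

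Partners that carry ADAM proteases to the surface or mature them are given next. Of 18 regulators (iRhoms, tetraspanins, proprotein convertases, plasminogen activators and inhibitors), 15 were tested in males. Against male wannabes, 3 were called lower and none higher by edgeR in control Treg cells (6 with an unadjusted p under 0.05, DESeq2 5). The same numbers were called in rescued Treg cells (6 and 5). Of all genes 16.2% and 14.1% were called there in either direction, and 6.27% and 4.06% were called lower. Nothing about the list is read from these numbers. In both cases the 3 genes were *Rhbdf2*, *Furin* and *Tspan14*. *Rhbdf2*, encoding an iRhom that ADAM17 needs to leave the endoplasmic reticulum, averaged 1033 against 3493 normalized counts in control Treg cells and male wannabes (log2 fold change -1.76, edgeR adjusted p = 0.00204). *Furin*, a convertase that removes prodomains, averaged 499 against 1664 (-1.74), and *Tspan14*, a tetraspanin partner of ADAM10, 5328 against 10379 (-0.96). In rescued Treg cells the log2 fold changes against the same wannabes were -1.52, -1.42 and -0.67. Between rescued and control Treg cells 1 of 15 was called, *Tspan17* (622 against 193, log2 fold change 1.69), none lower by edgeR (2 with an unadjusted p under 0.05, DESeq2 1), beside 2.3% of all genes. In activated against resting wannabes, 2 of 13 were called higher, *Rhbdf2* (0.82) and *Pcsk5* (0.53), and none lower by edgeR (4 unadjusted, DESeq2 3), where 22.5% of all genes were. The median log2 fold changes of the list were 0.10, -0.014 (-0.21 with genes near 0 at their bound), -0.047 and 0.041 in rescued against control, control against wannabe, rescued against wannabe and activated against resting cells, beside -0.025, 0.089, 0 and -0.0073 over all genes.

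Of 20 proteins known to be shed by these enzymes, 18 were tested in males and 17 in females, with log2 fold changes given in parentheses. Between rescued and control Treg cells edgeR called none, with 8 at an unadjusted p under 0.05 and 2 called by DESeq2 (list median 0.22). Of all genes 2.3%, 16.1% and 8.16% were so in that comparison. In control Treg cells over male wannabes, *Il6ra*, the IL-6 receptor (1.59), was called higher and *Havcr2*, TIM-3 (-2.46), and *Il1r2*, a decoy IL-1 receptor (-1.46), were called lower (list median 0.030). In rescued Treg cells over male wannabes, *Il6ra* (1.26) and *Tnfrsf1b*, TNF receptor 2 (0.79), were called higher and none lower by edgeR (7 unadjusted, DESeq2 4; list median 0.070). In activated over resting wannabes, 2 were called higher and 4 lower (list median 0.083). All genes were called at 16.2%, 14.1% and 22.5% in the last 3 comparisons, and nothing is read from the numbers called in this list. In activated against resting wannabes *Icosl*, the ICOS ligand, averaged 624 against 45.2 normalized counts (3.78), and *Lag3*, an inhibitory receptor, 570.0 against 2850.3 (-2.32). *Tnfrsf1a* and *Tnfrsf1b*, the TNF receptors, were lower in the activated cells (-0.69 and -0.68). The other genes called in that comparison, *Havcr2* (higher, 0.59) and *Hbegf* (lower, -1.46), are outside the rule for named genes there and were named after their values were seen.

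*Mmp9*, which encodes a secreted protease of gelatin and basement membrane collagen, was highest in rescued Treg cells. It stood at 249, 182 and 103 normalized counts in control Treg, 1181, 1455 and 1942 in rescued Treg and 0 and 104 in male wannabe libraries. Each rescued library lay above the 5 other male libraries, and the male wannabe libraries disagreed, with no count in the first and 97 raw counts in the second. Mean levels were 1526 ± 385 in rescued Treg, 178 ± 73.1 in control Treg and 52.2 ± 73.9 in male wannabe cells. Rescued Treg cells exceeded wannabes by a log2 fold change of 4.88 (SE 1.13), the difference for which *Mmp9* was picked. This value was 3.86 without male wannabe 1 and 13.58 without male wannabe 2, where the remaining library at 0 leaves a fitted value that is no bound. Rescued and control Treg cells differed 8.57-fold, with a log2 fold change of 3.10 (SE 0.86; 2.82 to 3.42 with a library left out). The value of control Treg cells over male wannabes was 1.78 (SE 0.99), between 0.76 without male wannabe 1 and 10.48 without male wannabe 2, again against a lone library at 0.

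In females *Mmp9* was lower in activated than in resting wannabes. The resting wannabes held 222, 235 and 188 normalized counts and the activated ones 20.8 and 52.5. The 3 resting libraries lay close together and above both activated ones. The mean fell from 215 ± 24.4 to 36.6 ± 22.4, with a log2 fold change of -2.55 (SE 0.41, edgeR adjusted p = 0.00792), which was -3.37 without activated wannabe 2.

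Neutrophils and macrophages can make MMP9, and their markers are given beside it, although the gate of the sort required TCRβ and CD4 and excluded CD8 and NK1.1. The 11 neutrophil markers summed to 1.32, 1.10 and 1.24 CPM in control Treg, 0.421, 0.0391 and 1.17 in rescued Treg, 2.08 and 0.313 in male wannabe, 0.285, 0.378 and 0.911 in resting wannabe and 0.381 and 0.319 in activated wannabe libraries. Rescued and control sums overlapped. *Mmp9* itself stood at 7.67, 5.80 and 3.23 CPM in control and 35.1, 43.9 and 57.7 in rescued Treg cells, and *S100a9*, *Cxcr2*, *Retnlg*, *Camp* and *Elane* had at most 3 counts in each of the 13 libraries. The top gene was *Ltf* or *S100a8* in control Treg, *Mpo*, *Csf3r* or *Ltf* in rescued Treg and *Mpo* in male wannabe libraries. The 11 monocyte or macrophage markers summed to 10.6, 5.02 and 11.9 CPM in control Treg, 13.8, 6.06 and 8.78 in rescued Treg, 3.40 and 6.39 in male wannabe, 1.96, 5.61 and 5.82 in resting wannabe and 11.9 and 8.10 in activated wannabe libraries. In males these sums overlapped between rescued and control cells, and in females they were higher in the activated ones. *Cd68*, named after its values were seen, stood at 0.231, 0.725 and 0.711 CPM in control Treg, 4.80, 3.05 and 4.99 in rescued Treg, 0.938 and 5.42 in male wannabe, 0.428, 0.963 and 1.16 in resting wannabe and 2.13 and 1.88 in activated wannabe libraries. *Itgam*, named in the same way, stood at 10.2, 3.42 and 10.7 CPM in control Treg, 5.98, 1.60 and 1.83 in rescued Treg and 0.0880 and 0.845 in male wannabe libraries. Between rescued and control Treg cells edgeR called none of the 5 markers tested (1 at an unadjusted p under 0.05, DESeq2 1), with a median log2 fold change of 1.45. Of all genes 2.3%, 16.1% and 8.16% were so in that comparison. *Itgam* or *Cd68* led in the Treg libraries, and *Cd14* and *C1qb* were at 0 in 7 and 8 of the 8 male libraries. The part of myeloid cells in the *Mmp9* counts was not tested.

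The tables held 71 other genes of the ADAM, ADAMTS, MMP and TIMP families, of which 9 had no count in any of the 13 libraries, 37 were tested in males and 20 in females. In males *Adamts6*, a secreted protease of the matrix, was the single gene of these called by edgeR, higher in control Treg cells than in male wannabes (6032 against 1923 normalized counts, log2 fold change 1.65, edgeR adjusted p = 0.00157) and lower in rescued than in control Treg cells (2669 against 6032, -1.18, edgeR adjusted p = 0.0155). DESeq2 called 6 and 5 of 35 genes with an adjusted p in these comparisons, and 8 and 9 had an unadjusted edgeR p under 0.05. All genes were called by edgeR at 16.2% and 2.3%. Between rescued Treg cells and male wannabes edgeR called none (4 at an unadjusted p under 0.05, DESeq2 2), beside 14.1% of all genes. In activated over resting wannabes, 2 were called higher and 4 lower of 20, given with their log2 fold changes, beside 22.5% of all genes. *Mmp10*, a stromelysin, averaged 266 against 4.08 normalized counts (5.97). At that resting mean it could pass the low-count filter only through the activated libraries. Its call, counted above, and its fitted value are therefore a description. *Adam12* averaged 141 against 1771 (-3.65), *Adam33* 16.7 against 224 (-3.74), and *Mmp14*, a membrane-type protease that activates other MMPs, 226 against 607 (-1.43). *Adamts3* (0.63) and *Adamts10* (-0.32), also called, fell outside the naming rule and were named after their values were seen. The median log2 fold change of the list was -0.47 in rescued against control Treg, 0.87 in control Treg against wannabe, -0.27 in rescued Treg against wannabe (-0.23 with genes near 0 at their bound) and -0.34 in activated against resting cells.

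The inhibitor *Timp1* was at the edge of detection. Its counts were 18, 0 and 0 in control Treg libraries, 0 in each rescued Treg, male wannabe and resting wannabe library, and 1 and 2 in the activated wannabes, so that no fold change is given. *Timp2*, whose product also takes part in activating pro-MMP2, was well expressed and uneven between libraries of a group. It stood at 478, 688 and 689 normalized counts in control Treg, 4208, 824 and 825 in rescued Treg and 899 and 581 in male wannabe libraries. Rescued Treg 1 stood apart from the 7 other male libraries, which lay between 478 and 899. The log2 fold change of rescued over control Treg cells, 1.66 (SE 0.56, edgeR adjusted p = 0.159), was 0.42 without that library. With rescued Treg 1 included, 2 of 6 other settings called it, DESeq2 (adjusted p = 0.0231) and testing without a filter (0.0423), and adjusted p reached 0.261. In the female wannabes *Timp2* stood at 13156, 5348 and 2889 in resting and 4466 and 5488 in activated libraries. These overlapped, with means of 7131 ± 5361 and 4977 ± 722 and a log2 fold change of -0.52 (SE 0.57, edgeR adjusted p = 0.545).

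*Fn1* was nearly silent in control Treg cells and resting wannabes and present at low counts in the 3 other groups. The raw counts were 1, 1 and 11 in control Treg, 142, 78 and 281 in rescued Treg and 640 and 233 in male wannabe libraries. Rescued Treg and male wannabe libraries lay above the control ones without overlap, and overlapped each other. In normalized counts the means were 4.12 ± 5.42 in control Treg, 164 ± 82.7 in rescued Treg and 426 ± 248 in male wannabe cells. The log2 fold change of rescued over control Treg cells, the difference for which *Fn1* was picked, was 5.26 (SE 0.87). This value was 4.84 without control Treg 1 and 7.21 without control Treg 3, which held 11 of the 13 control counts and without which the control libraries were under the floor of 3 counts, so that the fitted value is no bound. Control Treg cells fell below male wannabes with a log2 fold change of -6.63 (SE 0.93), which was -8.58 without control Treg 3, again no bound, and -5.88 without male wannabe 1. The value of rescued Treg cells over male wannabes was -1.37 (SE 0.75; -1.91 to -0.61 with a library left out).

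In females the *Fn1* counts were 0, 0 and 1 in resting and 211 and 122 in activated wannabes. The resting libraries were at or under the floor of 3 counts, so the difference is a lower bound. With the floor taken in each library, *Fn1* was at least 50.8-fold higher in activated cells. It passed the low-count filter through the activated libraries alone, so the edgeR adjusted p of 0.000852 is a description and nothing beyond the bound is read from it. The fitted log2 value of 8.39, or 10.32 without resting wannabe 3, depends on the prior count and is no bound. Even in the highest library, male wannabe 1, *Fn1* stood at 18.8 CPM.

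Fibronectin is made in quantity by stromal cells, and some but not all marker lists of other cell types moved with *Fn1*. Group means of the stroma, dendritic cell and CD8 T or NK cell sums had the order of those of *Fn1* in each experiment. In males those of the monocyte or macrophage sum did not, at 9.18 CPM in control Treg, 9.56 in rescued Treg and 4.89 in male wannabe cells. The 7 fibroblast or stroma markers summed to 0.925, 1.07 and 1.24 CPM in control Treg, 3.57, 3.64 and 6.44 in rescued Treg, 11.5 and 3.38 in male wannabe, 0.927, 0.894 and 0.596 in resting wannabe and 2.26 and 2.81 in activated wannabe libraries. The group means had the order of those of *Fn1* in each experiment, and male wannabe 1 was the highest library for both, although male wannabe 2 lay below the rescued libraries in the marker sum. *Col1a1* or *Col1a2* led in each library but control Treg 3, where *Pdpn* did, and *Col3a1* and *Lum* had at most 3 counts in each of the 13 libraries. *Pdpn* stood at 0.0661, 0.348 and 0.770 CPM in control Treg and 0.225, 0.157 and 0.164 in rescued Treg libraries. *Dcn* was at 0 in both male wannabe libraries, and these genes were named after their values were seen. By edgeR 4 of the 7 were tested in males and none was called between rescued and control Treg cells (2 at an unadjusted p under 0.05, DESeq2 2). Of all genes 2.3%, 16.1% and 8.16% were so in that comparison. *Col1a2* was called lower in control Treg cells than in male wannabes. With control counts of 0, 4 and 0 it passed the low-count filter through the other male libraries alone, so this call is a description. The 9 dendritic cell markers summed to 1.95, 2.06 and 0.918 CPM in control Treg, 9.85, 4.70 and 5.62 in rescued Treg, 18.8 and 13.6 in male wannabe, 4.24, 5.26 and 4.63 in resting wannabe and 9.47 and 10.0 in activated wannabe libraries. They followed the same order of groups, led by *H2-Aa*, *Xcr1* or *Zbtb46*, while *H2-Ab1* and *H2-Eb1* were at 0 in all 13 libraries. *H2-Aa* was called higher in activated than in resting cells. It was also called higher in rescued Treg and in male wannabe than in control Treg cells, whose counts were 0, 12 and 0. In males it passed the low-count filter through the rescued Treg and male wannabe libraries alone, so these calls against control cells are a description. The part of other cells in the *Fn1* counts was not tested.

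**Figure D3:**
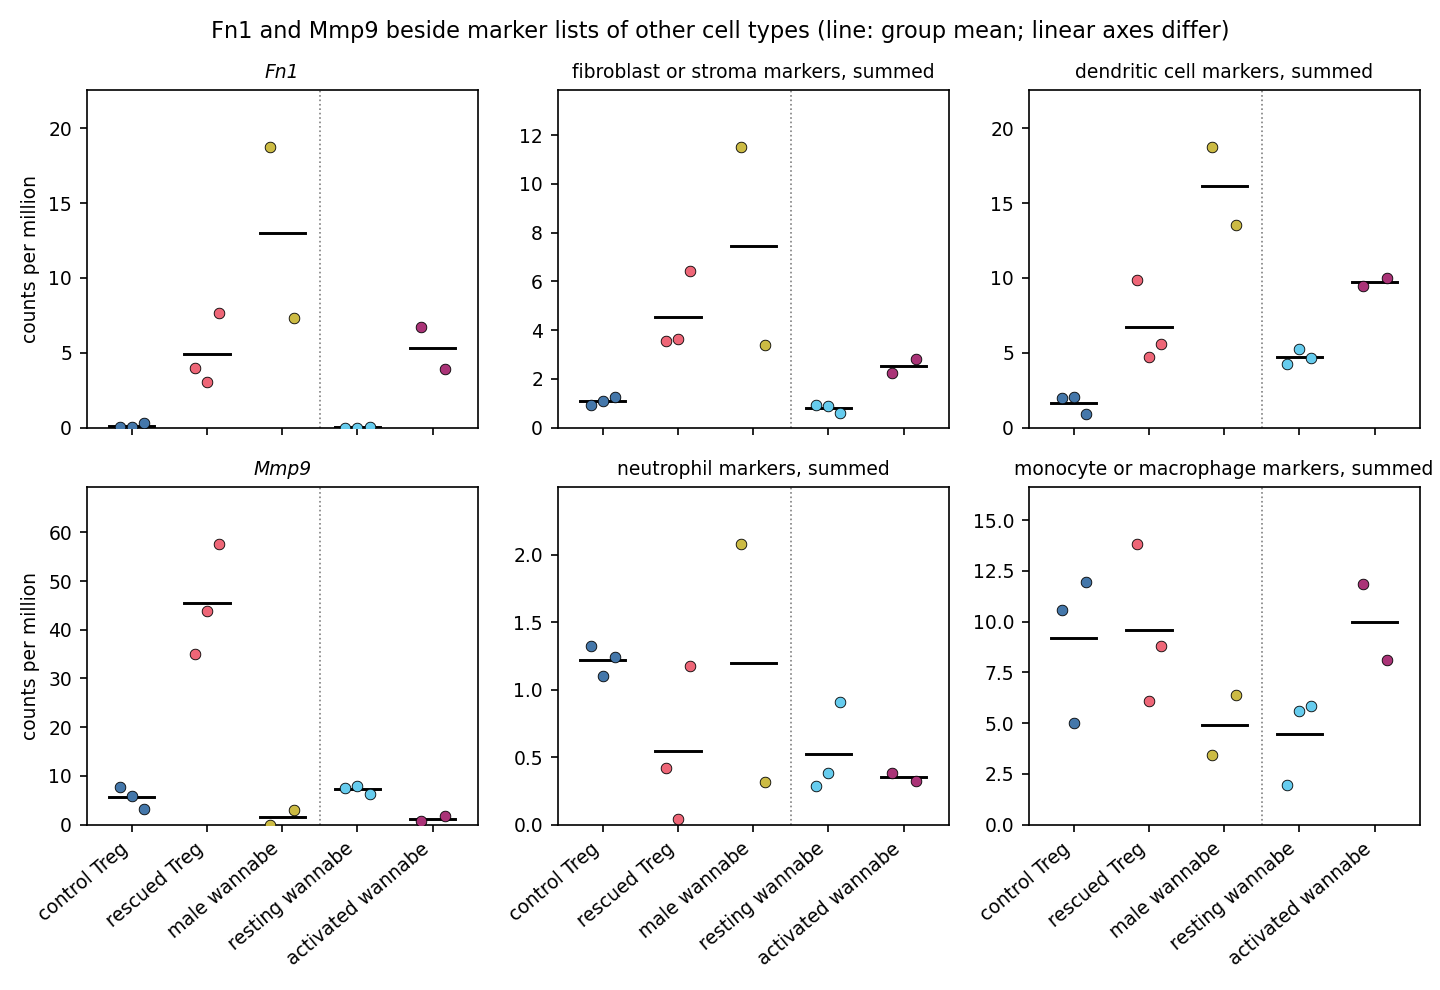
*Fn1* and *Mmp9* in CPM beside the summed CPM of markers of other cell types, per library, with lines at group means and linear axes that differ between panels. The stroma sum reached 11.5 CPM in male wannabe 1, where *Fn1* reached 18.8 CPM, and the neutrophil sum was at most 2.08 CPM.

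Over the 13 libraries, the remaining marker sums ran from 9.81 to 42.0 CPM for B cells (5 of 6 genes in the tables), 12.3 to 33.0 CPM for CD8 T or NK cells (4 genes, led by *Cd8b1*), 142 to 315 CPM for endothelium (3 genes, nearly all from *Pecam1*, which T cells also express), 0 to 3.34 CPM for megakaryocytes or platelets (4 genes, *Pf4* at 0 in all 13 libraries) and 0.998 to 17.3 CPM for erythroid cells (4 genes). The B cell sums were 12.2, 11.6 and 9.81 CPM in resting and 24.7 and 22.3 in activated wannabe libraries, with *Cd79b* called higher in the activated ones (log2 fold change 1.34). The CD8 T or NK cell sums were 26.1, 18.5 and 13.9 CPM in control Treg, 22.4, 26.1 and 20.2 in rescued Treg and 23.3 and 33.0 in male wannabe libraries. Of these genes *Klrb1c*, which encodes NK1.1, was called lower in control Treg cells than in male wannabes (-2.85). Between rescued and control Treg cells edgeR called none of the 4 (2 at an unadjusted p under 0.05, DESeq2 2), where 2.3%, 16.1% and 8.16% of all genes were so. *Pecam1* was called lower in rescued than in control Treg cells (-0.71) and higher in control Treg cells than in male wannabes (0.59), where *Hba-a1* of the erythroid list was called lower (-3.17). These genes were named after their values were seen, and the part of such cells in the counts was not tested.

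Among 35 other matrix proteins, 21 were tested in males and 14 in females, with log2 fold changes again in parentheses. Between rescued and control Treg cells 1 was called higher, the basement membrane protein *Nid2* (1705 against 692 normalized counts, log2 fold change 1.30, edgeR adjusted p = 0.0488), and none lower by edgeR (7 at an unadjusted p under 0.05, DESeq2 6), beside 2.3% of all genes called, 16.1% at that p and 8.16% by DESeq2. Between control Treg cells and male wannabes, 1 was called higher, the laminin chain *Lamc1* (1119.7 against 380.4, 1.56), and 3 lower, *Emilin1*, an elastic fibre protein (584 against 1311, -1.17), and *Col1a2* (-6.57) and *Spp1*, osteopontin (-8.72). The last 2 lay outside the naming rule and were named after their values were seen, and a control mean near 0 makes their fitted values uncertain. *Col1a2*, at 0, 4 and 0 counts in control Treg libraries, passed the low-count filter through the other male libraries alone, so its call is a description. These 4 of 21, with *Col1a2* counted, stood beside 16.2% of all genes, and nothing is read from the number. *Lamc1* (1.60) was also higher and *Emilin1* (-1.52) lower in rescued Treg cells than in the same wannabes, the 2 called there beside 14.1% of all genes. In activated over resting wannabes, *Ecm1* (1.01) and *Nid2* (4.51, named outside the rule after its value was seen) were called higher and *Lamc1* (-1.42) lower, 3 of 14 beside 22.5%. The list medians in the same order of comparisons were 0.045, -0.95, -0.73 and 0.66 on the log2 scale.

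Of the 6 integrin chains that bind fibronectin, with log2 fold changes in parentheses, *Itgb1* was called higher in rescued than in control Treg cells (1.55), in rescued Treg cells than in male wannabes (1.63) and in activated than in resting wannabes (2.89), and *Itga5* lower in the same 3 comparisons (-2.80, -1.49 and -1.41). *Itgb7* was higher in control (1.36) and rescued (2.03) Treg cells than in male wannabes, and *Itga4* higher in control Treg cells than in male wannabes (1.11) and lower in activated than in resting wannabes (-1.60), with list medians of 0.21, 1.13, 0.68 and -0.15. The chains called in rescued against control, control against wannabe, rescued against wannabe and activated against resting cells numbered 2, 2, 3 and 3 of 6, beside 2.3%, 16.2%, 14.1% and 22.5% of all genes.

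Whether the members changed differently in the 2 experiments was tested in 1 fit of the 13 libraries, as the change from control to rescued Treg cells minus the change from resting to activated wannabes. Of the 6 members other than *Fn1* and *Mmp9*, 1 was called, *Adam8*, beside 1.53% of 15201 genes. *Fn1* was picked from a change that enters this difference and *Mmp9* on the same rescued libraries, so that their values here are a description. The *Adam8* difference was 2.46 on the log2 scale (SE 0.50, edgeR adjusted p = 0.0273) and the *Mmp9* difference 5.67 (SE 1.28). With 1 library left out at a time, the *Adam8* call held in 8 of 13 fits, and was lost without control Treg 3, rescued Treg 3, resting wannabe 1, activated wannabe 1 or activated wannabe 2 (adjusted p up to 0.159). The *Mmp9* value ran from 5.14 to 6.48 over the same fits. The *Fn1* changes, upward in both experiments, differed by -3.15 (SE 1.49; -5.19 to -1.20 with a library left out), a value that rests on the fitted female change, which is no bound. No difference was called for *Adam10* (0.21), *Adam15* (0.88), *Adam17* (0.087), *Adam19* (0.28) or *Timp2* (2.18, between 0.95 and 2.58 with a library left out). Among the lists, *Lag3* (3.33) and *Icosl* (-3.86) of the shed substrates and *Itgb1* (-1.33) of the receptor chains were called. None was by edgeR of the 15 regulators tested (1 at an unadjusted p under 0.05, DESeq2 1), the 22 matrix proteins (7 and 4) or the 37 other metalloproteases (6 and 1). Of all genes, 1.53% were called by edgeR, 13.8% had an unadjusted p under 0.05 and DESeq2 called 5.54%.

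For each member the 3 genes of most similar pattern were those with the smallest root mean square difference in log2 CPM (prior count 2, centred within each experiment) over the 13 libraries, among 12971 genes. For *Adam8*, whose own root mean square deviation was 1.17, they were *Nmur1* (0.30), *Gm12610* (0.42) and *Casp1* (0.46). For *Adam19* (0.42) they were *Ift140* (0.19), *Urm1* (0.19) and *Fbxw5* (0.20), and for *Adam15* (0.53) *Ripk1* (0.16), *Foxj3* (0.16) and *Adipor1* (0.16). *Timp2* (0.83) was nearest to *1810026J23Rik* (0.37), *Rnf11* (0.45) and *Nanos1* (0.45). *Mmp9* (2.49) and *Fn1* (2.90) were farther from their nearest genes, *Dhdh* (1.37), *Hic1* (1.46) and *Ccdc117* (1.47) for *Mmp9* and *Epha8* (0.98), *Ifitm1* (1.00) and *Gzma* (1.02) for *Fn1*. *Adam10* (0.17) and *Adam17* (0.081) varied little, with *Lrrc57* (0.079), *Vps26a* (0.083) and *Smg6* (0.085) nearest to *Adam10* and *Fam192a* (0.066), *Phf8* (0.070) and *Ptdss1* (0.071) to *Adam17*.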

How the data were processed

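Bulk mRNA was measured in 13 libraries of sorted mouse CD4 T cells, 8 from males and 5 from females. The authors prepared libraries from TRIzol-extracted RNA with the SMART-Seq v4 and KAPA Hyper Prep kits and sequenced them as paired 50-base reads on an Illumina HiSeq instrument. They aligned reads to GRCm38 with STAR (version 2.7.3a in the submitters' processing notes, which also name DESeq2 1.28.1) with local realignment by GATK, and deposited unnormalized counts per gene, 1 table for each experiment. The annotation and the strand setting of counting were not given in the sources used here. Each table had 24421 entries, of which 4 without a gene name were left out (0.00353% to 0.00841% of counts). Every column of counts was used, mapped to its group by name.

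From these counts, genes were filtered with filterByExpr, scaled by TMM and tested with edgeR 4.0.16 (glmQLFit and glmQLFTest) and limma 3.58.1 in R 4.3.3, with Benjamini-Hochberg adjustment over all genes tested and calls at an adjusted p under 0.05. The male groups shared 1 fit (14925 genes), the female groups another (13166), and a fit of all 13 libraries (15201) tested the difference of changes. Replicates were compared before averaging, over genes with at least 20 counts, and each pair differed by more than counting noise (chi-square per degree of freedom 13.8 to 152). Exon lengths and coordinates came from GENCODE for GRCm38. The procedure was tested on simulated counts.

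The members and the lists (regulators, shed substrates, other matrix proteins, fibronectin receptor chains, other metalloproteases and Timps, and markers of T, Treg, monocyte or macrophage, neutrophil, dendritic, B, CD8 T or NK, stromal, endothelial, megakaryocyte or platelet and erythroid cells) were chosen with earlier results of these data known. Named genes were the members and, from each other list, up to 4 called genes per comparison with the largest absolute log2 fold change among those with a mean normalized count over 100 in that experiment; for each member, the 3 genes of smallest root mean square difference were named too. A gene of the shed substrates is not reported here. Alternatives were a filter on a mean normalized count over 100, testing without any filter, DESeq2 1.42.0, edgeR scaled by the size factors of DESeq2, fitting only the groups compared, the replicate number as a block, and each library left out in turn.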

Additional observations from a re-analysis of the deposited data

Results flagged for a closer look

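The change of *Adam8* from control to rescued Treg cells exceeded its change from resting to activated wannabes by 2.46 on the log2 scale (edgeR adjusted p = 0.0273), the changes being 2.84 and 0.39 in the separate fits. The change of *Mmp9* differed by 5.67, the separate changes being 3.10 and -2.55. The experiments differed in sex, age and agent and in whether the compared cells made Foxp3, which cannot be told apart, and with 1 library left out at a time the *Adam8* call held in 8 of 13 fits. *Mmp9* was picked on the same rescued libraries, so that its difference is a description without a test.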

How the results depend on the processing

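The 4 male and female comparisons and the difference of changes gave 501 member values that kept direction and side of the threshold under an alternative, 9 that gained a call, 17 that lost one and 24 that changed sign. Over the settings other than leaving out a library, the calls of *Adam8*, *Adam19* and *Adam15*, and those of *Mmp9* and *Fn1* between activated and resting wannabes, held wherever the gene passed the filter. The counts include the differences for which *Fn1* and *Mmp9* were picked and others that share those libraries, from whose calls nothing is read.

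Genes called between rescued and control Treg cells numbered 343, with 1195 by DESeq2, 612 without the filter, 580 with only the 2 groups fitted and 114 to 598 with a library left out. DESeq2 called 3751 genes between control Treg cells and male wannabes (2416 by edgeR, 1549 to 2423 with a library left out) and 3316 between rescued Treg cells and male wannabes (2105 by edgeR). Between activated and resting wannabes, 2958 were called and 751 to 3215 with a library left out. Members called between rescued and control Treg cells, with *Fn1* counted, numbered 2, but 4 without the filter and 1 to 3 with a library left out. Of the 2 called between activated and resting wannabes, 1 was left with the filter on a mean over 100, which *Fn1* did not pass. Of the 2 called for the difference of changes, *Adam8* and *Mmp9*, 0 to 2 were with a library left out. The cause was not tested.

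No called value changed sign. With the filter on a mean over 100, the log2 fold change of rescued over control Treg cells was 0.026 for *Adam10*, and that of rescued Treg cells over male wannabes 0.048 for *Adam8* and 0.046 for *Adam17*. With a library left out, rescued over control values ran from -0.13 to 0.070 for *Adam10*, -0.042 to 0.10 for *Adam17* and -0.14 to 0.21 for *Adam19*. Control Treg over wannabe values ran from -0.046 to 0.47 for *Adam10*, -0.11 to 0.0065 for *Adam17* and -0.59 to 0.086 for *Timp2*. Rescued Treg over wannabe values ran from -0.089 to 0.13 for *Adam8*, -0.080 to 0.43 for *Adam10* and -0.094 to 0.072 for *Adam17*, and activated over resting values from -0.89 to 0.28 for *Timp2*. The cause was not tested. Where a group was left with 1 library, that library was assumed to vary like the others.

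Replicate numbers were not shown to pair libraries: the correlations of deviations between same-numbered control and rescued Treg libraries were 0.084, 0.060 and -0.019, and not every library correlated best with its own number. With the number as a replicate block, the genes called in the 4 comparisons were 426, 2304, 1968 and 2045, of which 319, 2037, 1782 and 1852 were shared with the fit without it, the numbers of members called were the same, and *Timp2* in control Treg cells over male wannabes changed sign to 0.092. *Timp1* had between 0 and 18 counts in a library, and *Fn1* between 0 and 11 in control Treg and resting wannabe libraries, which limits precision.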
